A study of Mus musculus with 8 samples.

Results

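The FGF pathway was followed here through 38 mouse genes, read by 58 of the 41174 probes of a microarray. They were chosen by name: every gene called Fgf, Fgfr, Spry or Spred with a number, and Etv1, Etv4, Etv5, Dusp6 and Fgfrl1. Of these, 32 genes and 47 probes gave enough signal to be tested, among 14453 named genes and 31288 probes in all.

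The samples were medial ganglionic eminences (MGE), the part of the embryonic ventral telencephalon that gives rise to cortical and striatal interneurons, micro-dissected at embryonic day 13.5 from mice of strain C57BL/6. Total RNA of each sample was labelled with Cy3 and read on its own array, 4 for the group called WT and 4 for the group called Nkx2-1cKO. The labels give the WT genotype as Nkx2-1flox/+;Olig2tva-cre- and the Nkx2-1cKO genotype as Nkx2-1flox/+;Olig2tva-cre+, so that the floxed allele was common to both groups and Cre marked the cKO. The study's methods name an Nkx2-1f/f strain, and the labels do not, so labels and methods differ on the number of floxed copies. The level of Nkx2-1 RNA on each group of arrays is given below. Recombination followed the Olig2 locus, whose activity in the ventral forebrain is not confined to cells that express Nkx2-1, the homeodomain factor that sets MGE identity. Neither the labels nor the methods say whether the arrays came from single embryos or pools, and p-values here measure the spread between these arrays.

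Fibroblast growth factors bind receptor tyrosine kinases together with heparan sulfate and drive the RAS-MAPK cascade. In the early forebrain, FGFs from the rostral midline pattern the telencephalon, and FGF receptors in the ventricular zone support its progenitors. The cascade switches on the PEA3 group of ETS transcription factors (Etv1, Etv4, Etv5) and its own inhibitors, the Sprouty and Spred proteins and the phosphatase Dusp6, so these genes are widely used as readouts of the pathway.

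Array quality bears on dim members. On the 8 arrays, 71.1% to 79.5% of probes were well above background, and WT replicate 1 stood apart: its dimmest probes deviated by a median of 1.18 log2 units from the other arrays, against -0.41 to 0.22 elsewhere. The arrays lay on 2 slides, each with 2 WT and 2 Nkx2-1cKO arrays. Nkx2-1 itself lay between 1.82 and 1.95 on the WT arrays and between -4.66 and -4.26 on the Nkx2-1cKO arrays, a difference of -6.34. All levels are log2 intensities relative to the 75th percentile of the same array, and all differences are Nkx2-1cKO minus WT on that log2 scale, with limma's standard error (SE) and a p-value from limma adjusted over all tested probes.

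Across the 32 tested members, the ETS factor Etv1 fell and the FGF homologous factor Fgf14 rose, and no other member passed the threshold of 0.05. That is 1 gene lower, where 0.851% of all tested genes were lower, and 1 gene higher, where 0.491% were higher. In 6 members the arrays of the groups did not overlap, Etv1, Etv5, Spry1 and Fgf18 being lower and Fgf14 and Fgf3 higher in Nkx2-1cKO. Groups did not overlap in 6.84% of all tested genes, 4.02% lower and 2.82% higher. Negative differences were found for 21 members and positive ones for 11, with a median of -0.11, beside -0.0018 over all genes. The member median depended on the processing. It was -0.045 with quantile normalization, 0.009 when arrays were centred on the median and 0.28 with normexp background correction. The secreted ligands, the receptors and Dusp6 gave no call in either direction.

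**Figure D1:**
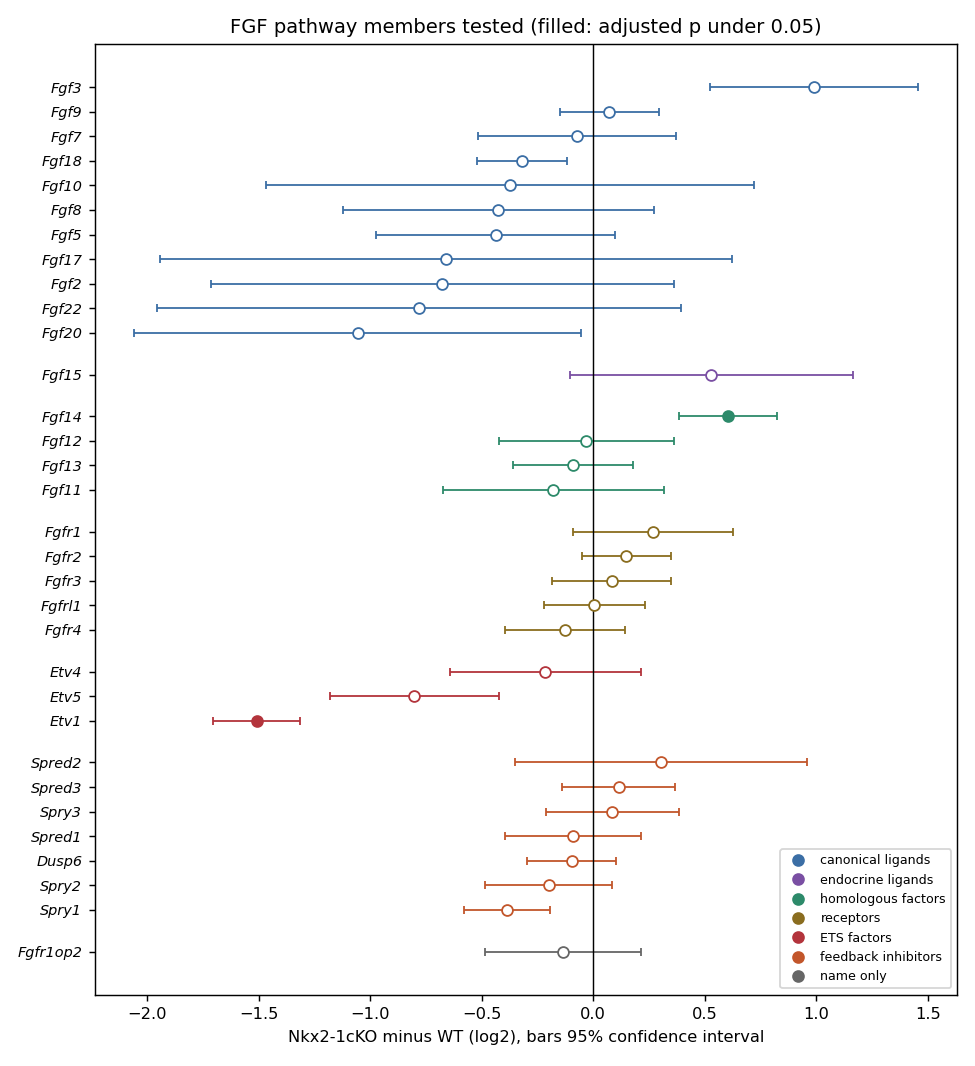
Difference between Nkx2-1cKO and WT (log2, x axis) with its 95% confidence interval for each of the 32 tested members, 4 arrays per group, coloured by role; filled points passed an adjusted p of 0.05. Etv1 at -1.51 and Fgf14 at 0.60 are the 2 filled points, and the intervals of the 5 receptors all cross 0.

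Etv1, a PEA3 group ETS factor also known as Er81, showed the clearest change of the pathway. Its level was 1.70, 1.99, 1.90 and 1.88 on WT arrays 1 to 4, and 0.45, 0.28, 0.36 and 0.34 on Nkx2-1cKO arrays 1 to 4. Every Nkx2-1cKO array thus lay far below every WT array, and the spread within a group was small beside the gap. The mean fell from 1.87 ± 0.12 to 0.36 ± 0.07 (SD, n = 4), a difference of -1.51 (SE 0.09, limma adjusted p = 2.90e-05), which left 35.1% of the WT intensity. Within slide 1 the difference was -1.49 and within slide 2 it was -1.53. In dissected tissue, fewer cells that express a gene and less of its RNA per cell cannot be told apart. Etv1 passed the threshold in 20 of 20 alternative settings, with differences between -1.57 and -1.39.

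Etv5, another gene of the PEA3 group, was lower too but did not pass the threshold. On the WT arrays it read -4.15, -4.21, -4.42 and -4.39, and on the Nkx2-1cKO arrays -4.99, -4.92, -5.25 and -5.22. Neither group reached into the range of the other, though the signal lay in a dim range of the array. The difference was -0.80 (SE 0.17, limma adjusted p = 0.0707), or 0.0514 with slide as a block, with -0.78 within slide 1 and -0.82 within slide 2. A second, dimmer probe of Etv5 separated the groups as well, at -0.66 (SE 0.18, limma adjusted p = 0.204). The direction of Etv5 depended on the processing. With normexp background correction of the median spot signal (offset 50) the Etv5 difference was 0.21 (limma adjusted p = 0.902). In that setting the median difference over all tested probes was 0.19.

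Etv4, the third gene of the PEA3 group, gave no separation. It read -3.21, -3.50, -3.88 and -3.83 in WT and -4.07, -3.97, -3.56 and -3.68 in Nkx2-1cKO. Arrays of both groups overlapped, Nkx2-1cKO replicates 3 and 4 lying above WT replicates 3 and 4. The difference of -0.21 had a 95% confidence interval from -0.64 to 0.21 (limma adjusted p = 0.718), and it was 0.39 with normexp.

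The promoters of the 6 members whose groups did not overlap are shown for context, since Etv1 and Etv5 belong to a family that binds DNA at AGGAAG (the PEA3 site) and CCGGAA (a general ETS core). Each window is 300 bases around an annotated transcription start in RefSeq on GRCm38.p6, written 5' to 3' along the gene's own strand, and capitals mark AGGAAG or its reverse complement CTTCCT.
Etv1, upstream start (chr12:38779832-38780131, plus strand): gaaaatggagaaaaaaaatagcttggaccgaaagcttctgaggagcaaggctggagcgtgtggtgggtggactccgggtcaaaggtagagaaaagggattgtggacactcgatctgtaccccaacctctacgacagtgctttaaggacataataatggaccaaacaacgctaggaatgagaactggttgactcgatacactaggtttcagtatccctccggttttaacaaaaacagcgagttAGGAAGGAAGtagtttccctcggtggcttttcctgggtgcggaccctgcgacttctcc
Etv1, downstream start (chr12:38783461-38783760, plus strand): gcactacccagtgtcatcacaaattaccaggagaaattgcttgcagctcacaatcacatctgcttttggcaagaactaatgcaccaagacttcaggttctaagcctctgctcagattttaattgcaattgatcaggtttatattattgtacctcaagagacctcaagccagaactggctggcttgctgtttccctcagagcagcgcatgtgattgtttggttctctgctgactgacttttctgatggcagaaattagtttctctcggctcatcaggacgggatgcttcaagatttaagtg
Etv5, upstream start (chr16:22439521-22439820, minus strand): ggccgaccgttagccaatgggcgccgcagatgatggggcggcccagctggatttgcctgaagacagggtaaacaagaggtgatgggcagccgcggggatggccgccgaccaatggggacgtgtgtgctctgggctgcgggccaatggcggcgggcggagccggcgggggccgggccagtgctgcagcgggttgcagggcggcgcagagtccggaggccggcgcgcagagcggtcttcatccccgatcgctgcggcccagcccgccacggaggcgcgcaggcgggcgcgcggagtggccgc
Etv5, downstream start (chr16:22438319-22438618, minus strand): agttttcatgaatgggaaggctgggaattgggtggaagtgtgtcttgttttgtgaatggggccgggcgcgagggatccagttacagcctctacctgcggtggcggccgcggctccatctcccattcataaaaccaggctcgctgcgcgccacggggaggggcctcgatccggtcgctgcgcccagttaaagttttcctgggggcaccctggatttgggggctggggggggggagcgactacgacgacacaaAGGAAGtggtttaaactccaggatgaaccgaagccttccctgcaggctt
Spry1 (chr3:37639697-37639996, plus strand): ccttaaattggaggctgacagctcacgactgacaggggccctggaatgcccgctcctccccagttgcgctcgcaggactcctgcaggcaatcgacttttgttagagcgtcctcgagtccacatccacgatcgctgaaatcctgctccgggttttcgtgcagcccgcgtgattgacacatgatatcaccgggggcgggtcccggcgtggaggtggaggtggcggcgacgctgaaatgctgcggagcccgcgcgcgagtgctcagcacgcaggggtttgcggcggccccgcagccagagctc
Fgf14 (chr14:124192497-124192796, minus strand): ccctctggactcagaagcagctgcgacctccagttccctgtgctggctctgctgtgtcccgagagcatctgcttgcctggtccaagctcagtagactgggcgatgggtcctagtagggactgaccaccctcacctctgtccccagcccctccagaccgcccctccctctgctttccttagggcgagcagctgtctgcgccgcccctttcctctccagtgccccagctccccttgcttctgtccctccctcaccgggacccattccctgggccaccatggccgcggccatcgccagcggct
Fgf18 (chr11:33147351-33147650, minus strand): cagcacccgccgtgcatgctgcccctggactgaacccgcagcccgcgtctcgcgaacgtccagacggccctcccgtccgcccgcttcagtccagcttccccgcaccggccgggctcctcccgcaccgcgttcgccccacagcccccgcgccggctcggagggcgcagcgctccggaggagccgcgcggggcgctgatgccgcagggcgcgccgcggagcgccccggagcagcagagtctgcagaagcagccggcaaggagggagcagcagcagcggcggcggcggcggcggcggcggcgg
Fgf3 (chr7:144838362-144838661, plus strand): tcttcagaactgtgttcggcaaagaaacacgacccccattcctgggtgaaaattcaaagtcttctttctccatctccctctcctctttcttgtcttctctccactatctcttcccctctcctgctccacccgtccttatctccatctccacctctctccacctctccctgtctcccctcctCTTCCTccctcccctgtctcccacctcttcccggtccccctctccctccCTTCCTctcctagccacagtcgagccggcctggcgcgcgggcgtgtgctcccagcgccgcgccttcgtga
AGGAAG was searched on both strands and occurs in 35.4% of the 32851 promoters of the same length. It is present as 2 overlapping copies at the upstream start of Etv1, the second of which crosses that start. It occurs once just after the downstream start of Etv5, and both genes were lower in Nkx2-1cKO. In the window of Fgf3, which was higher, lie 2 copies of its reverse complement. The windows of Spry1, Fgf14 and Fgf18 and the second windows of Etv1 and Etv5 do not hold it. The same search with CCGGAA (14.9% of promoters), the NK homeobox core CAAGTG (13.6%), the homeobox motif TAATTA (5.29%) and the octamer ATGCAAAT (1.74%) found these letters in none of the 8 windows. AGGAAG was added after the other motifs had been searched and the sequences seen, and a match to letters is a description of the sequence only.

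Among the feedback inhibitors, 7 of 8 were tested, none passed the threshold, and Spry1 was the member whose groups did not overlap. Spry1 encodes a Sprouty protein, one of those induced by FGF that damp RAS-MAPK signalling. It read 0.74, 0.88, 0.75 and 0.87 in WT and 0.51, 0.46, 0.46 and 0.26 in Nkx2-1cKO. Each Nkx2-1cKO array was lower than each WT array, with Nkx2-1cKO replicate 4 the lowest. The mean went from 0.81 ± 0.07 to 0.42 ± 0.11 (SD, n = 4), a difference of -0.39 (SE 0.09, limma adjusted p = 0.0927), which corresponds to 76.5% of the WT intensity. With slide as a block the limma adjusted p was 0.0238, past the threshold (1.9% of all tested genes were, in that fit), and the differences within slides were -0.39 on both. Spry1 passed in 2 of 20 alternative settings, and in none of those that left out a single array (limma adjusted p 0.126 to 0.296). When arrays were centred on the median, the Spry1 difference was -0.27 (limma adjusted p = 0.653).

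Spry2, the related Sprouty gene, read -0.61, -0.43, -0.14 and -0.49 in WT and -0.79, -0.72, -0.40 and -0.56 in Nkx2-1cKO. These arrays interleaved, and the difference of -0.20 (95% confidence interval -0.49 to 0.09) was not past the threshold (limma adjusted p = 0.658). Dusp6, the phosphatase that switches off ERK and a standard readout of FGF signalling, read 0.35, 0.19, 0.25 and 0.22 in WT and 0.24, -0.01, 0.25 and 0.16 in Nkx2-1cKO. Apart from Nkx2-1cKO replicate 2, its values lay close together whatever the genotype. The Dusp6 difference was -0.10 with a 95% confidence interval from -0.30 to 0.10 (limma adjusted p = 0.726). Spry3, Spred1, Spred2 and Spred3 had overlapping groups and differences between -0.09 and 0.30.

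**Figure D2:**
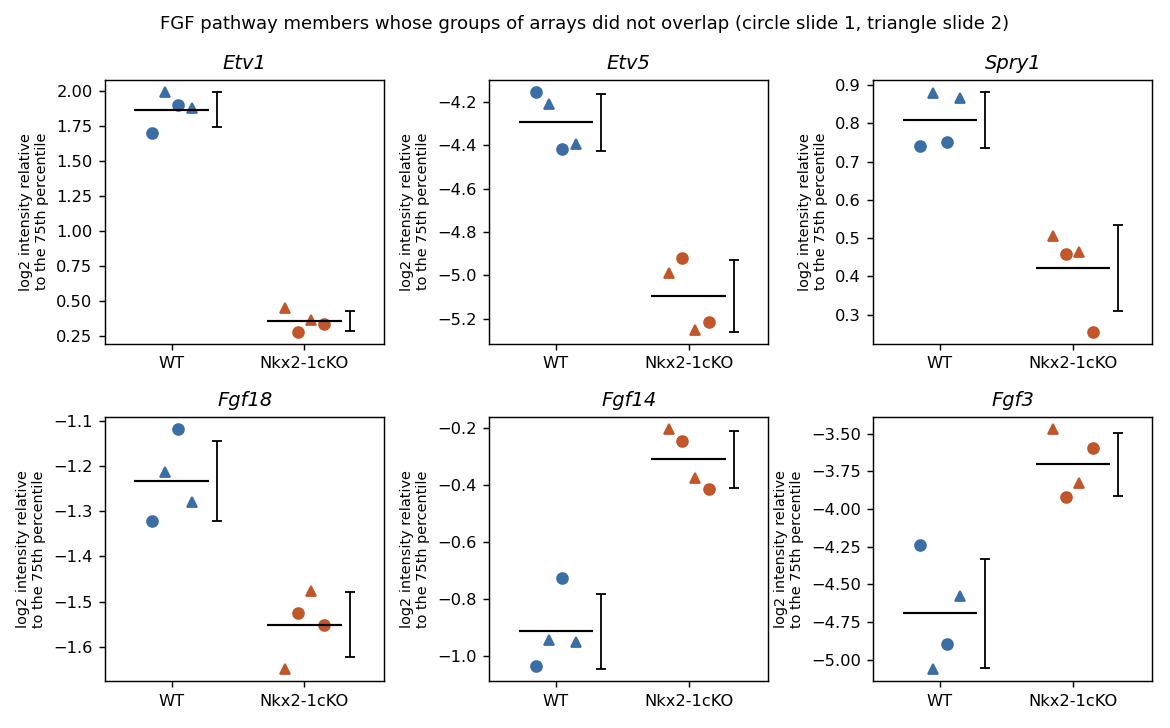
Log2 intensity relative to the 75th percentile (y axis, one scale per panel) on each of the 8 arrays for the 6 members whose groups did not overlap; circles are slide 1, triangles slide 2, lines the group mean and bars 1 SD. The difference of the group means is -1.51 for Etv1 and -0.32 for Fgf18. Each slide taken by itself separates the groups in all 6 panels, as it must where all 8 arrays do.

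Of the canonical ligands, 11 of 14 could be tested and none passed the threshold. Fgf3, a secreted ligand known from the development of the inner ear and tail, was higher in Nkx2-1cKO. It read -4.24, -5.06, -4.90 and -4.58 in WT and -3.47, -3.92, -3.83 and -3.59 in Nkx2-1cKO. All Nkx2-1cKO arrays exceeded all WT arrays, though the probe was dim and WT replicate 1 was the highest of its group. The mean moved from -4.69 ± 0.36 to -3.70 ± 0.21 (SD, n = 4), a difference of 0.99 (SE 0.21, limma adjusted p = 0.0711) or 1.99-fold, and 0.81 and 1.17 within slides 1 and 2. Without WT replicate 1 the Fgf3 difference was 1.14 and passed the threshold (limma adjusted p = 0.0213). No other fit that left out a single array passed, with limma adjusted p up to 0.239. Fgf3 passed in 4 of 20 alternative settings, and with normexp its difference was 1.05 (limma adjusted p = 0.855).

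Fgf18, a ligand of the Fgf8 subfamily, was lower. It read -1.32, -1.21, -1.12 and -1.28 in WT and -1.65, -1.53, -1.48 and -1.55 in Nkx2-1cKO. The groups did not overlap, but the gap between the nearest arrays was narrow. The difference of -0.32 (SE 0.09) was not past the threshold (limma adjusted p = 0.246, or 0.128 with slide as a block), and it was -0.32 within each slide.

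Fgf8 and Fgf17, the related ligands best known from the rostral patterning centre, were dim in MGE tissue. Fgf8 read -2.95, -4.38, -3.98 and -4.30 in WT and -4.38, -4.18, -4.72 and -4.02 in Nkx2-1cKO. WT replicate 1 stood alone at the top, and the remaining arrays overlapped. The Fgf8 difference was -0.42 (95% confidence interval -1.12 to 0.27, limma adjusted p = 0.673), and -0.11 without WT replicate 1.

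Fgf17 read -4.09, -6.31, -6.77 and -6.50 in WT and -6.92, -6.65, -6.75 and -5.97 in Nkx2-1cKO, and only 3 arrays of WT and 1 of Nkx2-1cKO had it well above background. Here too WT replicate 1 was far from every other array. The difference was -0.66 (95% confidence interval -1.94 to 0.62, limma adjusted p = 0.711) with that array and -0.05 without it, so these arrays did not resolve a change of Fgf17.

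Fgf15, the mouse counterpart of human FGF19 and a ligand made by embryonic neural progenitors, read -0.45, -1.61, -0.98 and -0.26 in WT and 0.06, -0.52, -0.64 and -0.07 in Nkx2-1cKO. Its WT arrays were widely spread, and WT replicates 1 and 4 overlapped the Nkx2-1cKO range. The difference was 0.53 with a 95% confidence interval from -0.10 to 1.16 (limma adjusted p = 0.632), positive within both slides at 0.41 and 0.65. Without WT replicate 2, the lowest array, it was 0.27.

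A dim signal and WT replicate 1 went together among the members. Of the 8 tested members with a WT mean under -4, WT replicate 1 was the highest WT array in 7, against 7 of the other 24. The 7 were Etv5, Fgf2, Fgf3, Fgf5, Fgf17, Fgf20 and Fgf22. Without that array Fgf20 was at -0.68 (-1.06 with it) and Etv5 at -0.76 (limma adjusted p = 0.0901). Over all 32 members the median difference was -0.11 with the array and -0.07 without it.

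**Figure D3:**
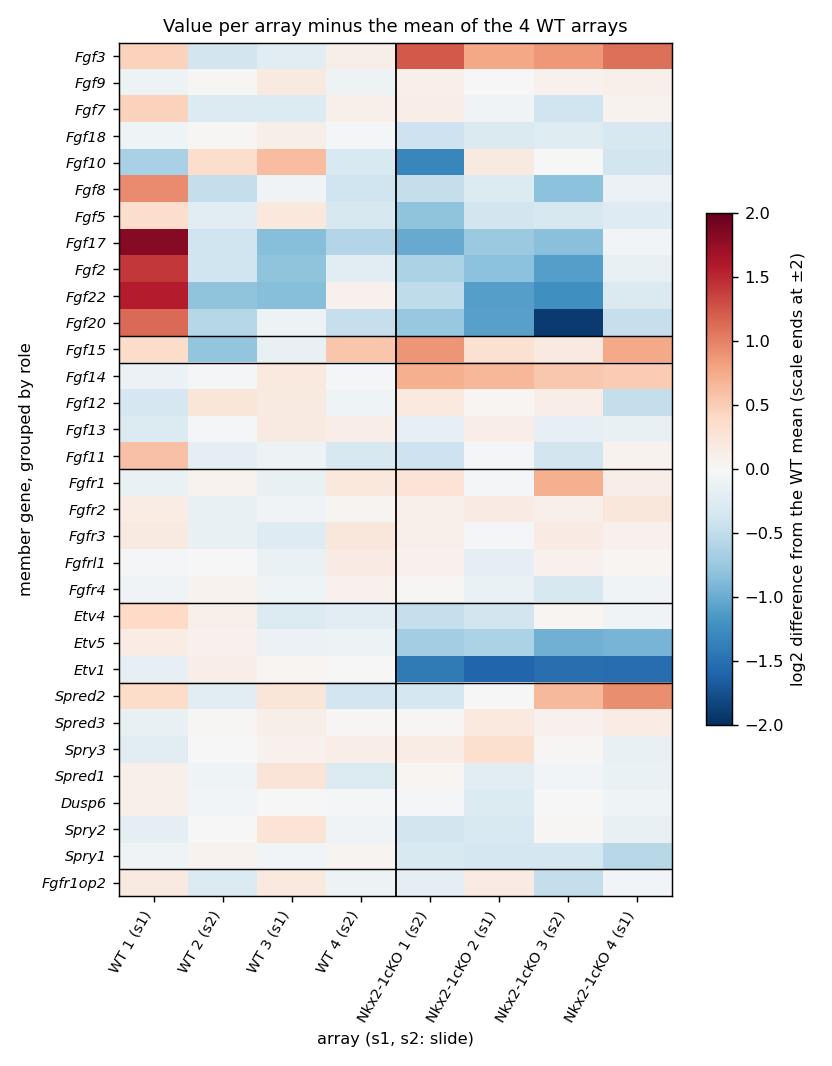
Log2 value of each tested member on each of the 8 arrays minus the mean of its 4 WT arrays (colour), with members ordered by role and the arrays marked by slide. Etv1 and Etv5 are low and Fgf14 and Fgf3 are high on all 4 Nkx2-1cKO arrays, and WT replicate 1 is high for Fgf8, Fgf17, Fgf2, Fgf22 and Fgf20.

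The 5 FGF receptor genes were well above background on all 8 arrays, and none passed the threshold. Fgfr1, the receptor most widely expressed in neural progenitors, read -0.45, -0.24, -0.45 and -0.09 in WT and -0.04, -0.35, 0.40 and -0.17 in Nkx2-1cKO. The groups overlapped, and Nkx2-1cKO replicate 3 was the highest array (difference 0.12 without it). The difference was 0.27 (95% confidence interval -0.09 to 0.63, limma adjusted p = 0.651), and 2 dimmer Fgfr1 probes gave 0.05 and -0.39, so the probes of this gene disagreed in sign.

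Fgfr2 read 0.52, 0.23, 0.30 and 0.43 in WT and 0.48, 0.53, 0.48 and 0.60 in Nkx2-1cKO. WT replicate 1 lay inside the Nkx2-1cKO range and the other WT arrays lay under it. Its difference was 0.15 with a 95% confidence interval from -0.05 to 0.35 (limma adjusted p = 0.655). Dimmer Fgfr2 probes gave 0.16 and -0.04. Fgfr3, a receptor enriched in ventricular zone progenitors, read 1.75, 1.43, 1.32 and 1.80 in WT and 1.67, 1.54, 1.74 and 1.67 in Nkx2-1cKO. The Nkx2-1cKO arrays fell inside the WT range, and the difference was 0.08 (95% confidence interval -0.18 to 0.35, limma adjusted p = 0.820). Dimmer Fgfr3 probes gave 0.09 and -0.06.

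For Fgfr4 the difference was -0.13 (95% confidence interval -0.39 to 0.14) and for Fgfrl1, which lacks a kinase domain, it was 0.005 (-0.22 to 0.23). On the brightest probe, each receptor interval was bounded within 0.63 of 0 on the log2 scale, and the Etv1 interval, from -1.70 to -1.31, lay outside all of them. Dimmer receptor probes reached further, with an interval from -0.83 to 0.06 for a probe of Fgfr1 and from -0.77 to 0.69 for a probe of Fgfr2.

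The FGF homologous factors Fgf11, Fgf12, Fgf13 and Fgf14 share the FGF fold but stay inside the cell, where they bind voltage-gated sodium channels and do not activate receptors. Fgf14 was the member that rose. Its brightest probe read -1.03, -0.94, -0.73 and -0.95 in WT and -0.21, -0.25, -0.38 and -0.41 in Nkx2-1cKO. The groups did not overlap, and WT replicate 3 was the nearest to the Nkx2-1cKO arrays. The mean rose from -0.91 ± 0.13 to -0.31 ± 0.10 (SD, n = 4), a difference of 0.60 (SE 0.10, limma adjusted p = 0.0190) or 1.52-fold, and 0.55 and 0.66 within slides 1 and 2.

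A second probe of Fgf14 read -4.23, -4.63, -4.24 and -4.44 in WT and -4.12, -3.84, -3.99 and -3.80 in Nkx2-1cKO. It separated the groups in the same direction at 0.44 (SE 0.16), short of the threshold (limma adjusted p = 0.436). The third probe, the dimmest, gave -0.13 (SE 0.36) with overlapping groups. With the mean of the probes in place of the brightest, Fgf14 was at 0.31 (limma adjusted p = 0.604). It passed the threshold in 11 of 20 alternative settings and in 4 of the 8 that left out an array, the others being those without WT replicate 2, WT replicate 4, Nkx2-1cKO replicate 1 or Nkx2-1cKO replicate 2 (limma adjusted p 0.0619 to 0.0757).

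By contrast, Fgf11, Fgf12 and Fgf13 had overlapping groups and differences of -0.18, -0.03 and -0.09. The rise of Fgf14 against each of these was not tested.

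**Figure D4:**
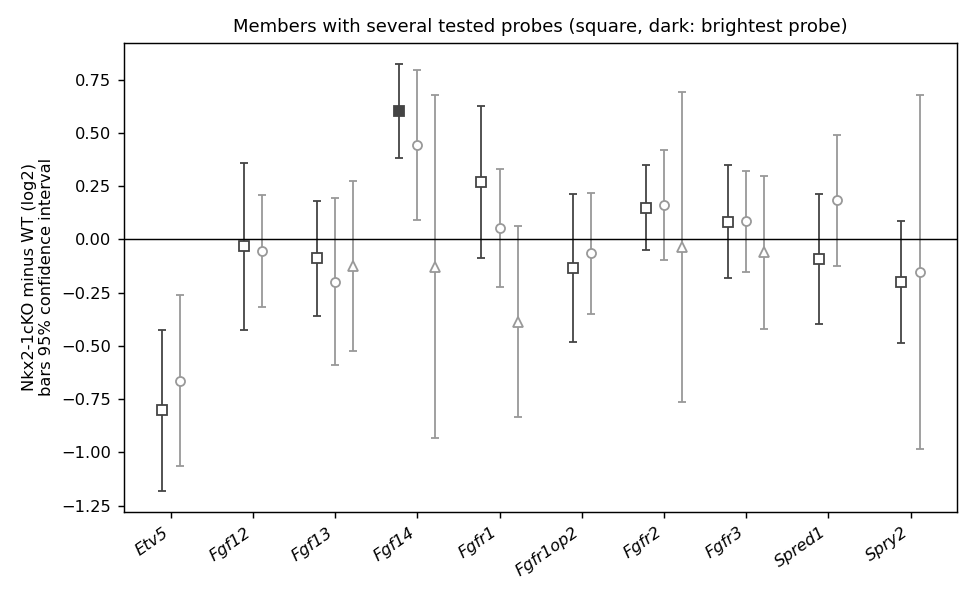
Difference between Nkx2-1cKO and WT (log2, y axis) with its 95% confidence interval for each tested probe of the 10 members with more than 1 tested probe, brightest probe first; the filled square passed an adjusted p of 0.05. All probes of a gene had the same sign in 5 of the 10, among them Etv5, and not in Fgf14, where the third probe has an interval from -0.93 to 0.68.

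The members not described by array, 17 of the 32 tested, gave 12 negative and 5 positive differences, from -1.06 for Fgf20 to 0.30 for Spred2, and the lowest limma adjusted p among them was 0.554. Fgfr1op2, named for a fusion partner of Fgfr1 and no component of the pathway, had a difference of -0.14. No test was made for Fgf1, Fgf6, Fgf16, Fgf21, Fgf23 and Spry4, whose probes were well above background on at most 3 of 8 arrays, and both Fgf21 probes were well above background on none. Fgf4 had no matched probe.

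The wider pathway was read from 58 genes of FGF signalling that are no members: 24 coreceptors, proteoglycans and heparan sulfate enzymes, 25 adaptors and RAS-MAPK components, and 9 other feedback and response genes. Of the 55 tested, 3 rose and 1 fell, beside 1.34% of all tested genes called in either direction, and the median difference was -0.0024. Of those that changed, Hs6st2, Flrt2 and Sulf1 belong to the extracellular and coreceptor genes, and none of the 24 tested adaptors and RAS-MAPK genes passed the threshold. Groups did not overlap in 12 of the 55 (5 higher, 7 lower), where 6.84% of all tested genes did not (2.82% higher, 4.02% lower): 5 of the 24 extracellular and coreceptor genes (4 higher, 1 lower), 3 of the 24 adaptors and RAS-MAPK genes (all lower) and 4 of the 7 response genes (1 higher, 3 lower). The list was not tested as a set.

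Hs6st2, which adds 6-O-sulfate to the heparan sulfate that FGFs bind, read 0.87, 0.68, 0.88 and 0.49 in WT and 1.57, 1.52, 1.35 and 1.53 in Nkx2-1cKO. The groups were well apart, with a difference of 0.76 (SE 0.11, limma adjusted p = 0.00777). A second, dimmer Hs6st2 probe gave 0.40 with overlapping groups, and the mean of both gave 0.58, short of the threshold (limma adjusted p = 0.0638). Sulf1, the extracellular sulfatase that removes 6-O-sulfate, read -0.56, -1.25, -1.78 and -1.06 in WT and -2.84, -2.67, -3.22 and -4.08 in Nkx2-1cKO. It was lower on every Nkx2-1cKO array, by -2.04 (SE 0.33, limma adjusted p = 0.0182), the largest difference in either list. Sulf1 missed the threshold without WT replicate 2 (limma adjusted p = 0.0538), WT replicate 4 (0.0682) or Nkx2-1cKO replicate 3 (0.0554).

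Flrt2, a leucine-rich repeat membrane protein of a family that binds FGF receptors, read -1.64, -1.52, -1.80 and -1.43 in WT and -0.88, -0.98, -0.91 and -0.85 in Nkx2-1cKO. Its Nkx2-1cKO arrays were tightly grouped above the WT arrays, at 0.69 (SE 0.10, limma adjusted p = 0.0111), and with normexp at 0.73 (0.0956). Myc, an immediate growth response gene, read -0.19, 0.25, 0.10 and 0.15 in WT and 0.80, 0.60, 0.84 and 0.74 in Nkx2-1cKO. The groups did not overlap on any of its 3 probes, and its brightest probe rose by 0.67 (SE 0.11, limma adjusted p = 0.0199), a call lost without WT replicate 3 or 4 or Nkx2-1cKO replicate 1, 3 or 4 (limma adjusted p 0.0532 to 0.0815).

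Among the 7 tested response and feedback genes outside the members, 6 had negative differences. Il17rd (-0.38), Egr1 (-0.53) and Fos (-0.57) had groups that did not overlap, and none of the 3 passed the threshold (limma adjusted p 0.325, 0.116 and 0.518). These were singled out after their values were seen.

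**Figure D5:**
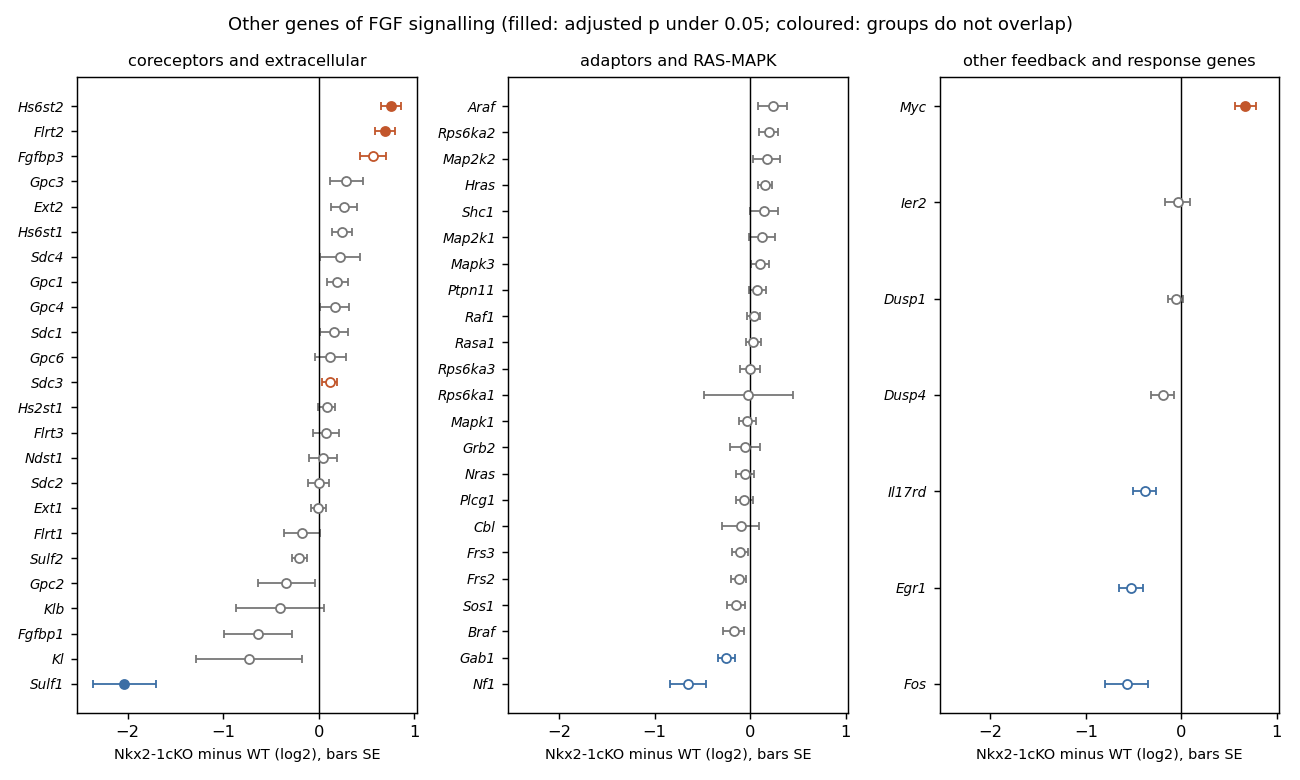
Difference between Nkx2-1cKO and WT (log2, x axis) with its SE for 54 of the 55 tested genes of FGF signalling in 3 groups; filled points passed an adjusted p of 0.05 and coloured points had groups that did not overlap. Hs6st2, Flrt2 and Myc are filled on the positive side and Sulf1 at -2.04 on the negative side. The 24 tested adaptors and RAS-MAPK genes had a median of -0.02, and 3 of them had groups that did not overlap, all lower.

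Markers of neighbouring regions moved with the genotype, and their part in the values of Etv1, Fgf14, Etv5, Spry1 and the signalling genes was not tested. The log2 summed intensity of the 10 MGE markers was 7.14 to 7.21 in WT and 6.82 to 6.98 in Nkx2-1cKO, with 3 of 10 genes lower (Nkx2-1, Lhx6 and Lhx8). For the 7 markers of lateral and caudal ganglionic eminence the sum was 5.30 to 5.71 and 6.19 to 6.33, with 4 of 7 higher (Ebf1, Isl1, Meis2 and Zfp503). The 2 measured oligodendrocyte precursor markers, Olig1 and Pdgfra, were both lower, summing to -0.06 to 0.18 in WT and -1.75 to -1.36 in Nkx2-1cKO, and 1 of 4 preoptic markers was higher (sums -0.37 to 0.07 and 0.29 to 0.99). Ventricular zone progenitor markers, the cells where Fgfr3 is enriched, summed to 6.89 to 7.20 in WT and 6.79 to 7.05 in Nkx2-1cKO, and none of the 7 passed the threshold, as was the case for the septal, pallial, endothelial, erythroid, mesenchymal and microglial lists. Mesenchymal markers were highest on WT replicate 4 (2.85, against -0.07 to 0.66 on the other arrays).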

How the data were processed

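Total RNA from 8 dissected samples (4 WT, 4 Nkx2-1cKO) was hybridised to 1-colour Agilent mouse arrays. The deposited files hold spot intensity on a linear scale, which per the file headers came from Feature Extraction 10.7.3.1 and was background-corrected there; no later normalization by the authors entered. Control spots and outlier flags were left out, spots of a probe averaged, intensities taken to log2 and the 75th percentile of each array subtracted. Accessions on 24844 of 41174 probes matched 17178 symbols in the RefSeq table of GRCm38.p6. Tests covered probes that 4 or more of the 8 arrays measured well above background, and were made with limma 3.58.1 (R 4.3.3; lmFit, eBayes with a variance trend), with Benjamini-Hochberg adjustment over 31288 probes at 0.05. A gene was read by its brightest tested probe. No spot was saturated, and the number of arrays limits precision. The fit was checked on simulated data.

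The members, the signalling list and the markers were chosen with earlier results of these data known. Values on every array are given for members past the threshold or with groups that did not overlap, and for Fgf8, Fgf15, Fgf17, Fgfr1, Fgfr2, Fgfr3, Spry1, Spry2, Etv1, Etv4, Etv5 and Dusp6. Of the signalling list, genes past the threshold are named, and 1 other gene of the list is not reported here. The slide, which matched the scan session, was tried as a block. Replicate numbers were shared by the groups, and deviations of arrays with the same number correlated between -0.48 and -0.19. WT and Nkx2-1cKO arrays with the same number lay on different slides, so these correlations cannot show whether the numbers paired the samples. The replicate number was therefore also tried as a block. Alternatives were quantile or median scaling, normexp, filters, blocks, variance models, probe summaries and leaving out arrays.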

Additional observations from a re-analysis of the deposited data

Results flagged for a closer look

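In 6 of 84 groups of 4 arrays (38 members and the 4 signalling genes past the threshold, in each genotype), 1 array lay far from the other 3. Chance marks about 1 in 20 such groups, which is 4.2 of 84, and 3 of the 6 concerned WT replicate 1. On that array Fgf1 read -5.03, against -7.06 to -6.80 on the other WT arrays. Fgf17 read -4.09 there, with the others at -6.77 to -6.31. Fgf21 read -5.85, with the others at -9.47 to -9.03, although it was not well above background on any array. Spry4 read -5.63 on WT replicate 3 and -7.79 to -7.51 on the other WT arrays. On Nkx2-1cKO replicate 2, Fgf13 read 1.65 against 1.34 to 1.36 on the rest of its group. Fgfrl1 read 0.46 on the same array, with 0.70 to 0.75 elsewhere in the group.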

How the results depend on the processing

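Among the members, 1 gene was higher and 1 lower as reported. The higher count was 2 with quantile normalization or array weights and 0 with normexp, with the mean of the probes of a gene, or without WT replicate 1 and Nkx2-1cKO replicate 4 together, and it ranged from 0 to 2 when single arrays were left out. The lower count was 2 with slide as a block or without a variance trend and 3 with array weights, and was 1 without any single array. In the signalling list, 3 higher genes became 1 without WT replicate 1 and Nkx2-1cKO replicate 4 together and ranged from 2 to 4 without single arrays, and 1 lower gene became 0 without a variance trend and ranged from 0 to 1. With the replicate number as a block the higher and lower counts of the signalling list were 0 and 0, and the higher count of the members was 0, while Etv1 passed (limma adjusted p = 0.00822). Normexp turned the direction of 14 of 32 members, among them Etv4 (0.39), Etv5 (0.21), Fgf17 (0.56), Fgf20 (0.31) and Fgf8 (0.32), and moved the median difference over all probes from -0.04 to 0.19. Centring on the median moved it to 0.08, turned Dusp6 to 0.0243, and placed Fgf3 (limma adjusted p = 0.0251) past the threshold and Fgf14 (0.0797) short of it. Fgfr1 was -0.0216 with the mean of its probes, and Fgfr3 ranged from -0.0029 (without WT replicate 3) to 0.16 when single arrays were left out. The cause of these shifts was not tested. Low signal limits Fgf8, Fgf17, Fgf2, Fgf20 and Fgf22, and 4 arrays per group limit all comparisons.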
